A study of Mus musculus with 36 samples.

Results

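Transcripts of 9 genes of neuropeptide signaling were followed through 32 samples of mouse hippocampal slices. They are the peptide Crh, its binding protein Crhbp and its receptor Crhr1, together with 6 other peptide receptors, Npy1r, Npy2r, Oxtr, Rxfp1, Npbwr1 and Glp1r. Their symbols were matched to mouse Ensembl identifiers, and each of the 9 was found once among the 55421 genes of the count table. The list was assembled with results of these samples in view. In particular, the T41B difference of Npbwr1 in sham vehicle slices and in stimulated BD10-2 slices, that of Rxfp1 in stimulated BD10-2 slices, and the stimulation difference of Glp1r in vehicle-treated WT mice had been seen and the genes were selected on them, so these values are given as a description with no test. The p-values of the other comparisons describe these samples and are not independent evidence for the choice of genes. Where another comparison of Npbwr1, Rxfp1 or Glp1r uses 1 of those groups of samples, it is not independent of the choice either.

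Neuropeptides are cut from larger precursors, stored in dense-core vesicles and released during sustained firing, and they act on G protein-coupled receptors over longer distances than fast transmitters. Corticotropin-releasing hormone (CRH) starts the hormonal stress response in the hypothalamus. In the hippocampus it is made by interneurons, acts through the CRHR1 receptor on pyramidal cells, and is held back by the secreted CRH-binding protein. Neuropeptide Y, acting on Y1 and Y2 receptors, dampens excitation, and its Y2 receptor sits largely on presynaptic terminals of excitatory axons.

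The WT mice were C57BL/6. The T41B mice carried human APP with the London and Swedish mutations under the neuronal Thy1 promoter (Thy1-hAPPLond/Swe, Line 41), which models amyloid pathology through transgene expression in neurons. All mice, controls included, were gavaged for 3 months, from 13 to 16 months of age, with vehicle (VEH) or with BD10-2 (also labelled PTX-BD10-2), a small-molecule partial agonist of the TrkB and TrkC neurotrophin receptors. Slices of the right hippocampus then received theta-burst stimulation, a pattern used to induce long-term potentiation, or a sham procedure, and were frozen at once. With vehicle there were 4 WT and 4 T41B mice for sham and 4 and 4 for stimulated slices, and with BD10-2 there were 3 WT and 5 T41B mice for sham and 3 and 5 for stimulated slices. The 36 libraries came from 18 mice, and where a mouse had 2 libraries of the same slice condition, as in 4 cases, their counts were added. Both kinds of slice were sequenced for 14 mice.

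The 36 libraries held between 11597555 and 28125842 expected counts, the median being 18082415. Levels are given as CPM, the gene's count scaled to the library's effective size, and differences as log2 fold changes with their standard error (SE) from edgeR. Calls were made at an adjusted p below 0.05 across the 19478 genes tested by edgeR, which include all 9 members. The genotype label was checked on Thy1, which the transgene cassette shares: its log2 fold change in T41B mice was 2.23 to 2.47 over the 4 genotype comparisons. Markers of principal neurons summed to 3740 to 5830 CPM per sample. Choroid plexus markers, the sum of 7 genes including Ttr, stood at 14.1 to 28.5 CPM in 26 samples. They exceeded 100 CPM in the other 6, which were the stimulated slices of WT vehicle Mouse1509 (1210 CPM) and Mouse1513 (988 CPM), the sham slices of T41B vehicle Mouse1551 (132 CPM) and Mouse1553 (527 CPM), and the stimulated slices of Mouse1551 (294 CPM) and Mouse1553 (114 CPM). Each batch in the labels holds 1 treatment, so batch and BD10-2 cannot be told apart. Batch E held WT mice only and batches G and H held T41B mice only, so batch and genotype are partly confounded too. The 6 samples rich in choroid plexus markers all belong to batches E and G. The samples are bulk tissue, in which fewer cells of a type and less RNA per cell cannot be told apart.

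The 250 bases before the RefSeq start (GRCm38.p6) are shown for Crhbp, the gene that separated the genotypes, and for Npy2r and Glp1r, the genes most often called after stimulation. RefSeq sequences were matched for 6 of the 9 genes, namely those shown and Oxtr, Npy1r and Crhr1. None was matched for Crh, Npbwr1 and Rxfp1. Capitals mark a cyclic AMP response element half-site, written TGACG or, on the other strand, CGTCA.
Crhbp, chr13:95444832-95445081, minus strand: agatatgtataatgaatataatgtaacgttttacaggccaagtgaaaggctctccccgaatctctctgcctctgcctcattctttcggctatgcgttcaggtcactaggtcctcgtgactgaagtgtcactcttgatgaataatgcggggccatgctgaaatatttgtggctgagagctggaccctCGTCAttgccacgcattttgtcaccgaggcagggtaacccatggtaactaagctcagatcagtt
Npy2r, chr3:82548086-82548335, minus strand: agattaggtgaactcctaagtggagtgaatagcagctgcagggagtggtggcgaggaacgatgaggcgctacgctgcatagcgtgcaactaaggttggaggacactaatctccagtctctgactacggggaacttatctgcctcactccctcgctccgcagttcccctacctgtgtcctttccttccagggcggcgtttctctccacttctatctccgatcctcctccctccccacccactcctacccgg
Glp1r, chr17:30901617-30901866, plus strand: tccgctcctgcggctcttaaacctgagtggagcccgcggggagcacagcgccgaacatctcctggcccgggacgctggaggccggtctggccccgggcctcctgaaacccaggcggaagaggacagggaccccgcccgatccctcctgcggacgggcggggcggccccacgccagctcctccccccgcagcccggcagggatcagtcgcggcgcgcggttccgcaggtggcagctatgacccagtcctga
Both strands were searched for 4 motifs of factors that respond to neuronal activity: the full cyclic AMP response element TGACGTCA, which contains the half-site, the half-site TGACG, the AP-1 site TGANTCA and the EGR site GCGGGGGCG. Crhbp held 1 half-site, at base 187 of the window, and Npy1r held 1 AP-1 site, at base 20. No other match was found in the 6 windows. The windows of Crhbp, Npy1r, Oxtr and Glp1r extend into the GENCODE models of these genes, and the Crhbp half-site lies inside its model. Of 32851 mouse promoter windows of this length, 17.8% held the half-site, 6.75% the AP-1 site, 1.55% the full element and 2.57% the EGR site. The 6 windows differ widely in base composition: GC content was 47.2% in Crhbp, 53.6% in Npy1r, 56.8% in Npy2r, 61.6% in Oxtr, 73.2% in Glp1r and 74.8% in Crhr1, against a median of 52.4% over all windows.

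The 9 genes covered a wide range of levels. Per kilobase of merged exons in sham slices of vehicle-treated WT mice, Npy2r stood highest at 9.75 ± 1.2 CPM per kb (SD, n = 4), followed by Npy1r (6.37 ± 0.93), Crhbp (4.88 ± 0.956) and Crhr1 (4.2 ± 0.627). Crhbp and Crhr1 differed by less than the SD of Crhbp, while Npy2r, Npy1r and Crhbp lay further apart than that. Rxfp1 followed at 2.28 ± 0.271 and Oxtr at 1.14 ± 0.24 CPM per kb. The lowest 3 were Glp1r (0.609 ± 0.302), Npbwr1 (0.599 ± 0.202) and Crh (0.398 ± 0.2), which overlapped within their SD. Crh, the peptide itself, had 2 to 32 counts per sample.

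**Figure D1:**
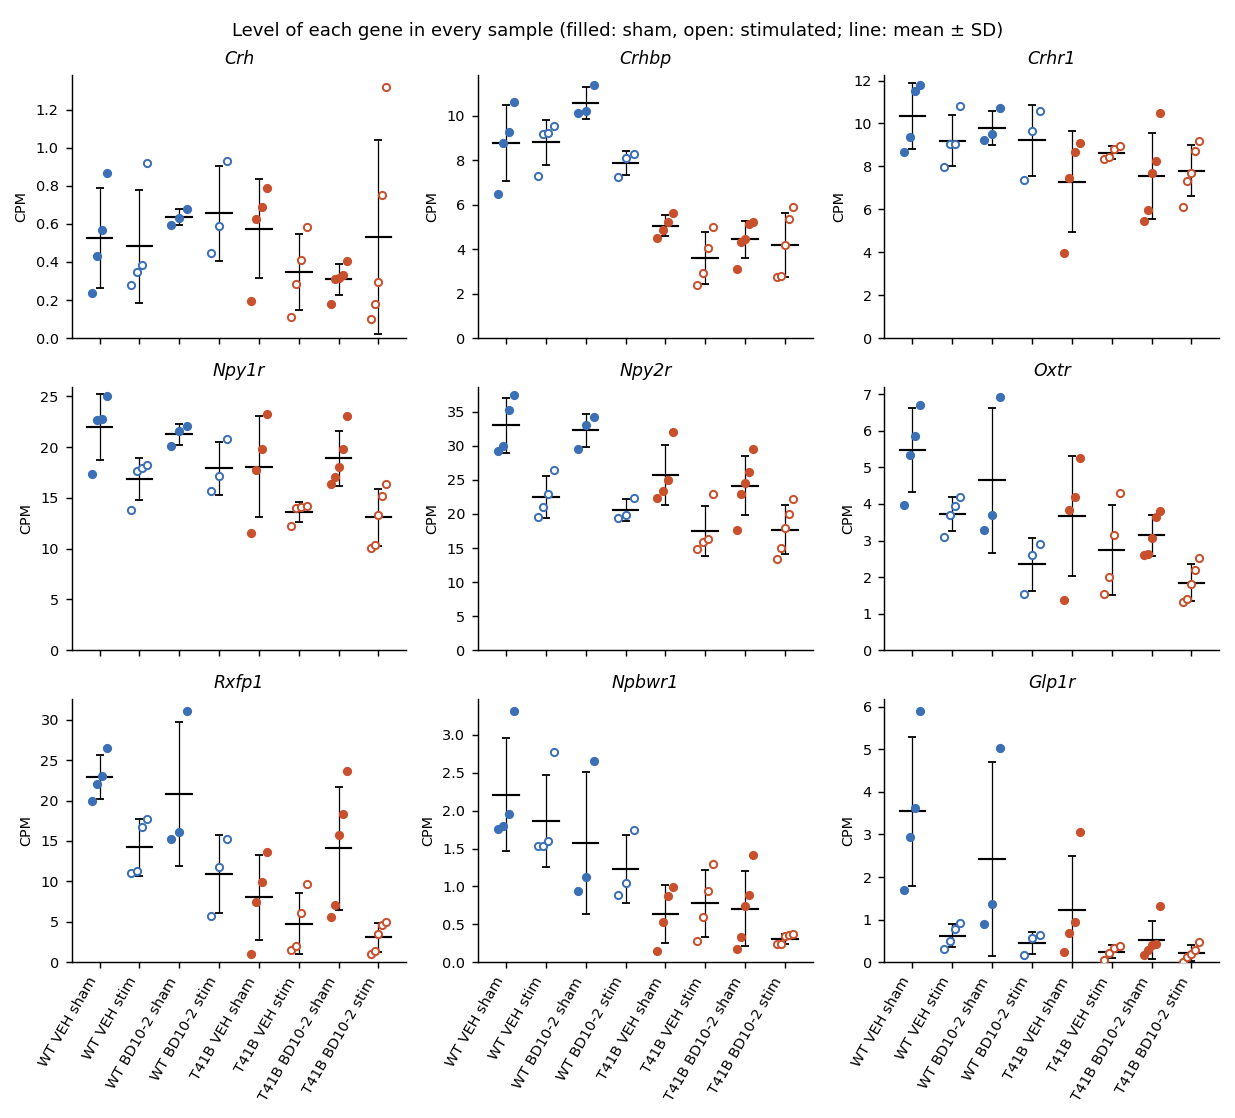
CPM (vertical axes, each from 0) of the 9 genes in all 32 samples by group, with sham slices filled, stimulated slices open, WT in blue and T41B in orange, and mean ± SD in black. Crhbp is the gene in which all 18 T41B samples (at most 5.91 CPM) lie below all 14 WT samples (at least 6.48 CPM).

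Crhbp (ENSMUSG00000021680, chr13:95431371-95444924, minus strand, GRCm38) encodes the secreted protein that binds CRH and limits its access to receptors. It was lower in T41B mice in each of the 4 genotype comparisons. In sham vehicle slices the WT values were 9.25, 6.48, 10.6 and 8.78 CPM and the T41B values 5.63, 4.84, 4.52 and 5.2 CPM. In stimulated vehicle slices they were 9.22, 7.27, 9.16 and 9.53 CPM against 2.91, 2.38, 4.07 and 5.01 CPM. With BD10-2 they were 10.2, 10.1 and 11.4 CPM against 5.15, 4.3, 3.12, 5.2 and 4.45 CPM in sham slices, and 7.26, 8.12 and 8.27 CPM against 2.79, 2.76, 4.18, 5.34 and 5.91 CPM in stimulated slices. No T41B sample reached the lowest WT sample of its condition, as was so for 3.33%, 4.31%, 7.18% and 5.46% of genes in the 4 comparisons. Of the 19478 genes, 3 (0.0154%) had every T41B sample below every WT sample: Crhbp, St13 (50.7 to 75.5 against 82.7 to 105.0 CPM) and Zfp385b (15.8 to 24.7 against 25.3 to 34.0 CPM). For Crhbp this holds with libraries summed: those of stimulated T41B Mouse1592 gave 7.18 and 4.89 CPM, and the first lies above the lowest WT sample.

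The log2 fold change of Crhbp in T41B mice was -0.80 (edgeR adjusted p = 0.0197, SE 0.21) in sham vehicle slices and -1.30 (edgeR adjusted p = 0.000218, SE 0.22) in stimulated vehicle slices. With BD10-2 it was -1.24 (edgeR adjusted p = 0.000277, SE 0.21) in sham and -0.90 (edgeR adjusted p = 0.00465, SE 0.21) in stimulated slices. Of all genes tested, 1.24%, 1.05%, 1.14% and 2.36% were called lower in these comparisons, and 8 genes (0.0411%), Crhbp among them, in all 4. In the 4 batches that held both genotypes in the same slice condition, its mean log2(CPM + 1) was lower in T41B mice in 7 of 7 pairs of groups, with differences of -1.38 to -0.60, as was so in sign for 3.93% of genes. Of these pairs, 5 set 1 mouse against 1, and sham and stimulated pairs of a batch share mice. The sham vehicle call was lost without WT Mouse1509 (adjusted p = 0.0612) or Mouse1522 (0.0741), or T41B Mouse1551 (0.0707) or Mouse1553 (0.073), with edgeR log2 fold changes of -0.78 to -0.70. With batch as a covariate it was -0.80 (edgeR adjusted p = 0.053). Without the 6 samples rich in choroid plexus markers it was -0.69 (edgeR adjusted p = 0.389) there and -1.24 (edgeR adjusted p = 0.0445) in stimulated vehicle slices.

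After stimulation Crhbp was called in no combination. Its values were 0.00 in WT vehicle, -0.50 (edgeR adjusted p = 0.11, SE 0.22) in T41B vehicle, -0.42 in WT BD10-2 and -0.07 in T41B BD10-2 mice. With the mouse as a block the T41B vehicle value was -0.53 (edgeR adjusted p = 0.0404), with batch as a covariate -0.50 (edgeR adjusted p = 0.0462), and without the stimulated slice of Mouse1579 it was -0.69 (edgeR adjusted p = 0.0334).

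Markers of GABAergic interneurons were also lower in T41B mice. Their sum over 8 genes was 265 to 394 CPM (median 341) in WT and 182 to 304 CPM (median 262) in T41B samples, and none of the 8 was at 0 in any sample. Of the 8, edgeR called none in sham vehicle, 2 in stimulated vehicle, 3 in sham BD10-2 and none in stimulated BD10-2 slices, all lower. Sst, the peptide somatostatin that defines a class of interneurons known to express Crhbp, was 35.2 to 79.6 CPM in WT and 15.2 to 42.1 CPM in T41B samples, which overlapped. Its log2 fold changes were -0.66, -1.03, -0.93 and -0.45 in the order used above (edgeR adjusted p = 0.158, 0.0229, 0.0461 and 0.355). Relative to the 8 markers, Crhbp stood at 1.93 to 3.22 CPM per 100 CPM in WT (median 2.69) and at 1.22 to 2.48 in T41B samples (median 1.67). Relative to Sst alone the medians were 17.6 and 13.8 CPM per 100 CPM, with ranges of 12 to 20.7 and 10.6 to 18.4. The part of interneuron content in the Crhbp difference was not tested. Across the 32 samples the genes most like Crhbp were Zfp385b (r = 0.92), Sst (r = 0.90) and Gad1 (r = 0.85), where r is Pearson's correlation of log2(CPM + 1) among 16192 genes, given as a description because the samples share mice and groups.

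**Figure D2:**
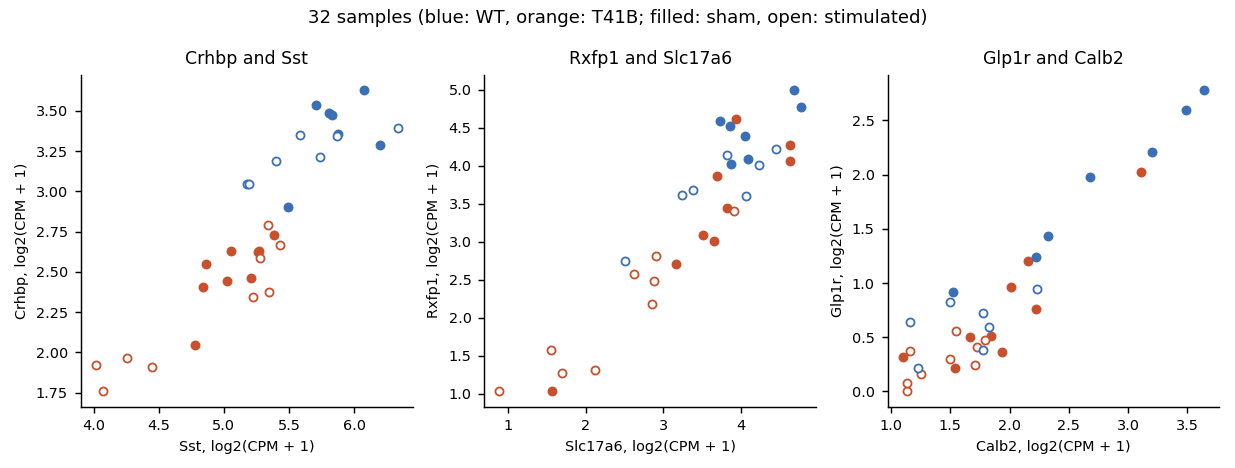
Each of the 32 samples by log2(CPM + 1) of Crhbp, Rxfp1 or Glp1r (vertical) and of a gene most like it (horizontal). Crhbp rises with Sst (r = 0.90), Rxfp1 with Slc17a6 (r = 0.93) and Glp1r with Calb2 (r = 0.93).

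Crh (ENSMUSG00000049796, chr3:19693401-19695396, minus strand) encodes the peptide that Crhbp binds. It ranged from 0.237 to 0.93 CPM in WT samples and from 0.0996 to 1.32 CPM in T41B samples, and the genotypes overlapped. Its largest genotype and stimulation differences were a log2 fold change of -1.09 (edgeR adjusted p = 0.296, SE 0.56) between genotypes in sham BD10-2 slices and 0.76 (edgeR adjusted p = 0.329, SE 0.53) after stimulation in BD10-2-treated T41B mice. In sham BD10-2 slices WT values were 0.63, 0.679 and 0.595 CPM and T41B values 0.18, 0.311, 0.404, 0.33 and 0.318 CPM, which did not overlap, as was so for 7.18% of genes. Stimulated values in that last group were 0.0996, 1.32, 0.177, 0.753 and 0.296 CPM. Precision was low at these counts: in sham vehicle slices the genotype difference was 0.11, with a 95% interval from -0.98 to 1.2 on the log2 scale.

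Crhr1 (ENSMUSG00000018634, chr11:104132855-104175523, plus strand) encodes the main CRH receptor of the forebrain. Its levels were 7.38 to 11.8 CPM in WT and 3.95 to 10.5 CPM in T41B samples. In sham vehicle slices WT values were 11.5, 9.37, 8.68 and 11.8 CPM and T41B values 8.69, 3.95, 9.09 and 7.45 CPM, a log2 fold change of -0.51 (edgeR adjusted p = 0.126, SE 0.20). The low value, 3.95 CPM, belongs to Mouse1551, whose slice was also the lowest of its group for Rxfp1, Oxtr, Npbwr1, Glp1r and Crh. Crhr1 was called in none of the 16 comparisons, at unadjusted p under 0.05 in 1, and its stimulation differences were -0.17, 0.25, -0.09 and 0.04. In the CRH system edgeR called the binding protein between genotypes and did not call the peptide or the receptor, whose difference from it was not tested.

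Among other CRH-system genes (Ucn, Ucn2, Ucn3, Crhr2, Nr3c1, Nr3c2, Fkbp5 and Pomc), 6 of 8 could be tested. Ucn2, which encodes urocortin 2, a ligand of the second CRH receptor, rose after stimulation in T41B mice, from a mean of 0.0914 to 0.777 CPM with vehicle (log2 fold change 2.96, edgeR adjusted p = 0.0011, SE 0.64) and from 0.0692 to 0.639 CPM with BD10-2 (2.97, edgeR adjusted p = 0.000368, SE 0.59). These are levels below 1 CPM, and the SD of the stimulated values was 0.736 CPM with vehicle and 0.252 CPM with BD10-2. Ucn2 was also higher in T41B than in WT stimulated slices, by 2.57 (edgeR adjusted p = 0.00714, SE 0.60) with vehicle and 1.81 (edgeR adjusted p = 0.0477, SE 0.60) with BD10-2. Fkbp5, a glucocorticoid-induced co-chaperone, fell after stimulation in T41B mice from 45.0 to 32.9 CPM with vehicle (edgeR adjusted p = 0.00813) and from 43.0 to 33.4 CPM with BD10-2 (edgeR adjusted p = 0.0173). Both genes are named by a rule of size among called genes, except that Ucn2 lies under its level of 1 CPM and was named after its values were seen.

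Npy2r (ENSMUSG00000028004, chr3:82538383-82548084, minus strand) encodes the Y2 receptor, through which neuropeptide Y limits transmitter release. It was lower after theta-burst stimulation in all 4 combinations of genotype and treatment. In vehicle-treated WT mice the sham values were 29.2, 30, 37.5 and 35.3 CPM and the stimulated values 21, 23, 26.5 and 19.5 CPM. In vehicle-treated T41B mice they were 32.1, 25, 22.3 and 23.4 CPM against 16.3, 14.9, 22.9 and 15.9 CPM. With BD10-2 they were 29.6, 34.2 and 33.0 CPM against 19.9, 19.4 and 22.4 CPM in WT mice, and 29.5, 23, 17.7, 24.5 and 26.2 CPM against 20, 13.4, 17.9, 15 and 22.2 CPM in T41B mice. Sham and stimulated values did not overlap in WT mice, as was so for 6.72% of genes with vehicle and 15.2% with BD10-2, and they overlapped in T41B mice. In the 14 mice with both slices, Npy2r was lower in the stimulated slice of 13. Of all genes, 20.3% were lower in 12 or more of these mice, 12.5% in 13 or 14 and 5.34% in all 14.

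The log2 fold change of Npy2r after stimulation was -0.55 (edgeR adjusted p = 0.0185, SE 0.16) in WT and -0.55 (edgeR adjusted p = 0.0115, SE 0.16) in T41B mice with vehicle. With BD10-2 it was -0.65 (edgeR adjusted p = 0.0195, SE 0.18) in WT and -0.45 (edgeR adjusted p = 0.0202, SE 0.14) in T41B mice. Of all genes tested, 4.1% (WT vehicle), 9.83% (T41B vehicle), 2.58% (WT BD10-2) and 9.52% (T41B BD10-2) were called lower after stimulation, and 198 genes (1.02%), Npy2r among them, in all 4. With the mouse as a block the value in BD10-2-treated T41B mice was -0.32 (edgeR adjusted p = 0.0779). Each of the 4 calls also depended on single samples, without which the direction held and the edgeR adjusted p lay between 0.0519 and 0.0851. These were sham Mouse1522 and stimulated Mouse1509 and Mouse1524 in vehicle WT (log2 fold changes -0.48, -0.52 and -0.49), and sham Mouse1510 and stimulated Mouse1551 in vehicle T41B (-0.42 and -0.48). With BD10-2 they were sham Mouse1571 and Mouse1590 and stimulated Mouse1565 and Mouse1571 in WT (-0.64 to -0.60), and sham Mouse1557 and stimulated Mouse1564 and Mouse1572 in T41B (-0.39 to -0.36). Between genotypes Npy2r differed by -0.36, -0.37, -0.41 and -0.21 (edgeR adjusted p = 0.169, 0.208, 0.135 and 0.471), none of them called. Without sham Mouse1510 the sham vehicle value was -0.49 (edgeR adjusted p = 0.0485). Without the 6 choroid-rich samples the stimulation value in vehicle WT mice was -0.52 (edgeR adjusted p = 0.0697).

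Npy1r (ENSMUSG00000036437, chr8:66697192-66706792, plus strand) encodes the Y1 receptor, which in the hippocampus is found mainly in the dentate gyrus. In BD10-2-treated T41B mice its sham values were 19.8, 23.1, 18, 17.1 and 16.4 CPM and its stimulated values 16.4, 10.1, 13.3, 10.4 and 15.2 CPM. These groups met only at 16.4 CPM, and the log2 fold change was -0.52 (edgeR adjusted p = 0.0101, SE 0.15). The other stimulation differences were -0.38 in WT vehicle, -0.41 in T41B vehicle and -0.25 in WT BD10-2 mice (edgeR adjusted p = 0.136, 0.0809 and 0.465). Without the sham slice of Mouse1553, at 11.5 CPM the lowest of its group, the T41B vehicle value was -0.57 (edgeR adjusted p = 0.00907). Npy1r was lower in the stimulated slice of 13 of 14 paired mice. Between genotypes it was called in no comparison, but at -0.54 (edgeR adjusted p = 0.0451) in stimulated BD10-2 slices without Mouse1563. Dentate granule cell markers, 4 genes whose mean sum went from 372 to 236 CPM after stimulation in vehicle-treated T41B mice and from 359 to 284 CPM in BD10-2-treated T41B mice, were lower there as was Npy1r. In WT mice their mean sum went from 275 to 247 CPM with vehicle and from 280 to 312 CPM with BD10-2. Their part in the Npy1r values was not tested. Npy, the shared ligand of both receptors, rose after stimulation in BD10-2-treated T41B mice from 6.71 to 13.1 CPM (log2 fold change 0.95, edgeR adjusted p = 0.00141, SE 0.21), and its differences in the other 3 combinations were -0.01, 0.25 and 0.02. In BD10-2-treated T41B mice the SD of Npy was 0.632 CPM in sham and 6.61 CPM in stimulated slices.

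**Figure D3:**
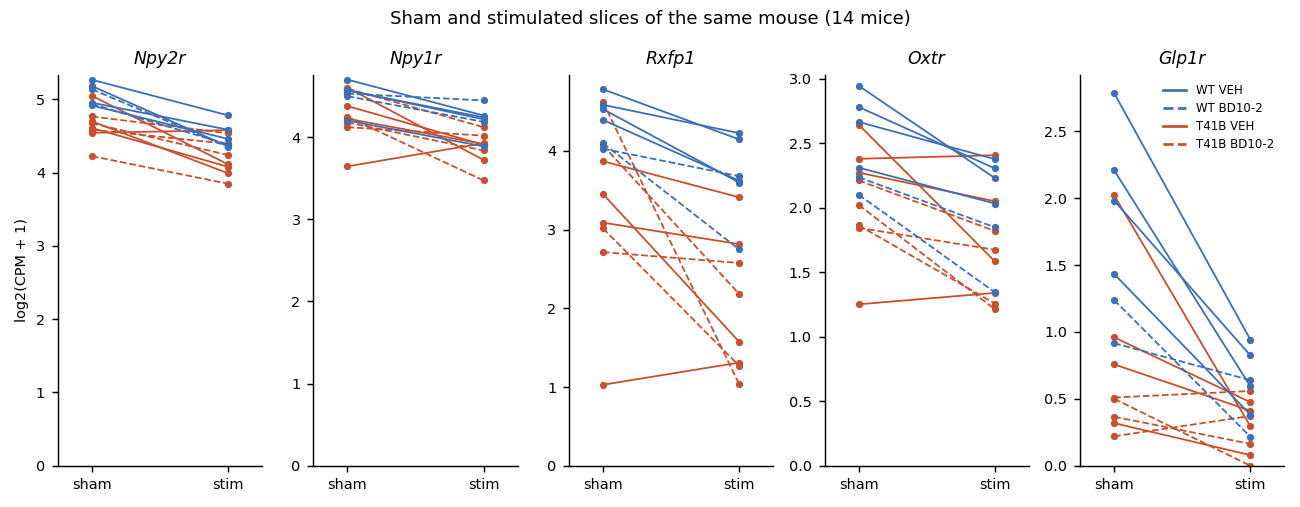
log2(CPM + 1) of 5 receptors in the sham and the stimulated slice of each of 14 mice, 1 line a mouse, WT in blue, T41B in orange and BD10-2 dashed. Lines fall in 13 of 14 mice for Npy2r, Npy1r and Rxfp1 and in 12 of 14 for Oxtr and Glp1r, the Glp1r count including 4 WT vehicle mice whose values had been used to choose the gene.

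Glp1r (ENSMUSG00000024027, chr17:30901817-30940791, plus strand) encodes the receptor for glucagon-like peptide 1, a gut and brainstem peptide that raises cyclic AMP. It was scarce, with 0 to 102 counts per sample. In vehicle-treated WT mice, the comparison that drew attention to it, sham values were 3.62, 2.95, 1.7 and 5.89 CPM and stimulated values 0.509, 0.771, 0.303 and 0.922 CPM, a log2 fold change of -2.53 (SE 0.65). In vehicle-treated T41B mice they were 3.06, 0.247, 0.691 and 0.945 CPM against 0.227, 0.0568, 0.33 and 0.39 CPM. With BD10-2 they were 1.36, 0.887 and 5.03 CPM against 0.162, 0.558 and 0.65 CPM in WT mice, and 1.31, 0.415, 0.289, 0.165 and 0.424 CPM against 0, 0.12, 0.294, 0.188 and 0.473 CPM in T41B mice. The 16 stimulated samples reached at most 0.922 CPM and the 16 sham samples 5.89 CPM, and the groups overlapped in T41B mice only. In WT mice all stimulated values lay below all sham values for 6.72% of genes with vehicle and 15.2% with BD10-2. In the 10 paired mice outside the WT vehicle group, Glp1r was lower in the stimulated slice of 8.

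Glp1r fell after stimulation in vehicle-treated T41B mice (log2 difference -2.26, edgeR adjusted p = 0.0391, SE 0.79) and, with -2.35 (edgeR adjusted p = 0.0496, SE 0.76), in BD10-2-treated WT mice. In BD10-2-treated T41B mice the value was -1.30 (edgeR adjusted p = 0.206, SE 0.72). With the mouse as a block the BD10-2 value in WT mice was -1.81 (edgeR adjusted p = 0.142). The T41B vehicle call was lost without sham Mouse1510 (-1.31, edgeR adjusted p = 0.267) or stimulated Mouse1510 (-2.21, 0.0858), Mouse1551 (-1.94, 0.116) or Mouse1553 (-2.42, 0.0616), and without the 6 choroid-rich samples (-2.71, 0.128). The WT BD10-2 call was lost without sham Mouse1590 (-1.32, edgeR adjusted p = 0.406) or stimulated Mouse1565 (-1.95, 0.199), Mouse1571 (-2.45, 0.103) or Mouse1586 (-2.77, 0.0847). Between genotypes Glp1r was lower in T41B mice by values of -1.56, -1.28, -1.99 and -0.94 (edgeR adjusted p = 0.134, 0.469, 0.0625 and 0.552), not called. The WT samples of both vehicle comparisons are those on which Glp1r was chosen, so these differences are not independent of the choice. Without T41B Mouse1510 the sham vehicle difference, against the same WT samples, was -2.50 (edgeR adjusted p = 0.0137). In sham BD10-2 slices it was called without WT Mouse1571 (-2.37, edgeR adjusted p = 0.045) or T41B Mouse1557 (-2.80, 0.0163). Calb2, the calcium-binding protein calretinin, was most like Glp1r over the samples (r = 0.93), and ranged from 1.14 to 11.5 CPM in sham and from 1.19 to 3.69 CPM in stimulated slices.

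Rxfp1 (ENSMUSG00000034009, chr3:79641611-79737880, minus strand) encodes the receptor of the peptide relaxin. An intronic transcript on the same strand, Gm26984 (median 1.12 CPM), overlaps it and could share reads. In BD10-2-treated T41B mice the sham values were 18.4, 23.6, 15.8, 7.09 and 5.56 CPM and the stimulated values 1.05, 3.54, 1.41, 4.58 and 4.96 CPM, without overlap, as was so for 5.93% of genes. The separation rests on summed libraries, since those of stimulated Mouse1592 gave 6.27 and 3.91 CPM. The log2 fold change was -2.17 (edgeR adjusted p = 0.00202, SE 0.51). These stimulated samples are also 1 side of the genotype comparison on which Rxfp1 was chosen, so their low values, and this p, are not independent of the choice. In the other 3 combinations Rxfp1 was lower after stimulation by values of -0.69, -0.75 and -0.92 (edgeR adjusted p = 0.417, 0.367 and 0.376), and the test of the difference between the BD10-2 and vehicle responses of T41B mice gave -1.42 (edgeR adjusted p = 1.0, SE 0.75). It was lower in the stimulated slice of 13 of 14 paired mice, a count that includes the stimulated BD10-2 slices used to choose it.

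Between genotypes, edgeR did not call Rxfp1 in the 3 comparisons that can be tested. In sham vehicle slices WT mice had 26.5, 20, 22.1 and 23 CPM and T41B mice 7.5, 1.04, 9.94 and 13.6 CPM, which did not overlap (3.33% of genes), with a log2 fold change of -1.52 (edgeR adjusted p = 0.0859, SE 0.53). In stimulated vehicle slices the values were 16.7, 11.3, 11.1 and 17.7 CPM against 6.04, 1.48, 1.98 and 9.63 CPM, without overlap (4.31% of genes), and -1.58 (edgeR adjusted p = 0.0954, SE 0.55). Both were called without the T41B sample of Mouse1579, at -1.91 (edgeR adjusted p = 0.0493) and -2.12 (edgeR adjusted p = 0.03). In sham BD10-2 slices WT mice had 16.1, 15.3 and 31.1 CPM, which overlapped the T41B values, and the difference was -0.54 (edgeR adjusted p = 0.609, SE 0.52). In stimulated BD10-2 slices, the comparison that drew attention to it, WT mice had 5.72, 11.8 and 15.2 CPM, a log2 fold change of -1.79 (SE 0.56). Slc17a6, the vesicular glutamate transporter VGLUT2 that marks subicular, thalamic and deep neurons more than hippocampal pyramidal cells, was most like Rxfp1 (r = 0.93). It fell (log2 difference -1.98, edgeR adjusted p = 0.00402, SE 0.50) in the same comparison of BD10-2-treated T41B mice, from 16.3 to 4.17 CPM. The 5 markers of subiculum and deep cortex together stood at 122 and 121 CPM there, with 2 of the 5 called lower (Slc17a6 and Foxp2). Between genotypes they stood at 107 CPM in T41B against 148 CPM in WT mice in sham vehicle slices, with 1 of the 5 called lower (Fn1, log2 fold change -1.05, edgeR adjusted p = 0.0107). The other genotype comparisons had T41B and WT sums of 122 and 132 CPM (stimulated vehicle), 122 and 143 CPM (sham BD10-2) and 121 and 129 CPM (stimulated BD10-2), with 0 of the 5 called. Whether the tissue held in each slice accounts for the Rxfp1 values was not tested.

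Npbwr1 (ENSMUSG00000033774, chr1:5913707-5917398, minus strand) encodes a receptor for neuropeptides B and W. In sham vehicle slices, a comparison used to choose it, WT mice had 3.32, 1.8, 1.76 and 1.96 CPM and T41B mice 0.875, 0.148, 0.531 and 0.997 CPM, a log2 fold change of -1.81 (SE 0.48). In stimulated vehicle slices the values were 1.53, 1.54, 2.77 and 1.6 CPM against 0.591, 0.284, 0.935 and 1.3 CPM. All WT values lay above all T41B values there, as was so for 4.31% of genes. The difference of -1.28 (SE 0.47) had an edgeR adjusted p of 0.118. In sham BD10-2 slices they were 1.12, 0.94 and 2.65 CPM against 1.42, 0.881, 0.173, 0.33 and 0.741 CPM, which overlapped, with -0.99 (edgeR adjusted p = 0.241, SE 0.46). In stimulated BD10-2 slices, also used to choose it, they were 0.892, 1.05 and 1.74 CPM against 0.349, 0.24, 0.236, 0.377 and 0.355 CPM, and -1.97 (SE 0.52). After stimulation the largest value was -1.27 (edgeR adjusted p = 0.0618, SE 0.49), in BD10-2-treated T41B mice, whose stimulated samples are also 1 side of a comparison used to choose the gene. It passed the threshold without sham Mouse1564 (-1.50, edgeR adjusted p = 0.0221) or Mouse1570 (-1.41, 0.0422), and without the 6 choroid-rich samples (-1.28, 0.0445), with the same samples used in the choice.

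Oxtr (ENSMUSG00000049112, chr6:112473683-112489943, minus strand) encodes the oxytocin receptor, which in the hippocampus is enriched in interneurons and in CA2. In BD10-2-treated T41B mice its sham values were 3.81, 2.64, 3.06, 3.63 and 2.59 CPM and its stimulated values 1.39, 1.32, 2.53, 1.82 and 2.19 CPM, without overlap. The same was so for 5.93% of genes. The separation rests on summed libraries: those of stimulated Mouse1592 gave 1.24 and 2.99 CPM and those of sham Mouse1557 gave 2.6 and 5.04 CPM. The log2 fold change was -0.76 (edgeR adjusted p = 0.0624, SE 0.30), with the mouse as a block -0.69 (edgeR adjusted p = 0.0455) and in a fit of these groups alone -0.75 (edgeR adjusted p = 0.0232). In BD10-2-treated WT mice 3.29, 3.71 and 6.93 CPM stood against 1.54, 2.6 and 2.9 CPM, a difference of -0.96 (edgeR adjusted p = 0.0983, SE 0.36). With vehicle the differences were -0.55 and -0.42 (edgeR adjusted p = 0.261 and 0.381). Oxtr was lower in the stimulated slice of 12 of 14 paired mice. Without the stimulated slice of Mouse1570 the T41B BD10-2 value was -0.89 (edgeR adjusted p = 0.0488). Fitted without the 6 choroid-rich vehicle samples, Oxtr was called in both BD10-2 combinations (edgeR adjusted p = 0.0302 in T41B and 0.0471 in WT mice). Between genotypes its values were -0.59, -0.46, -0.54 and -0.34, none called.

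**Figure D4:**
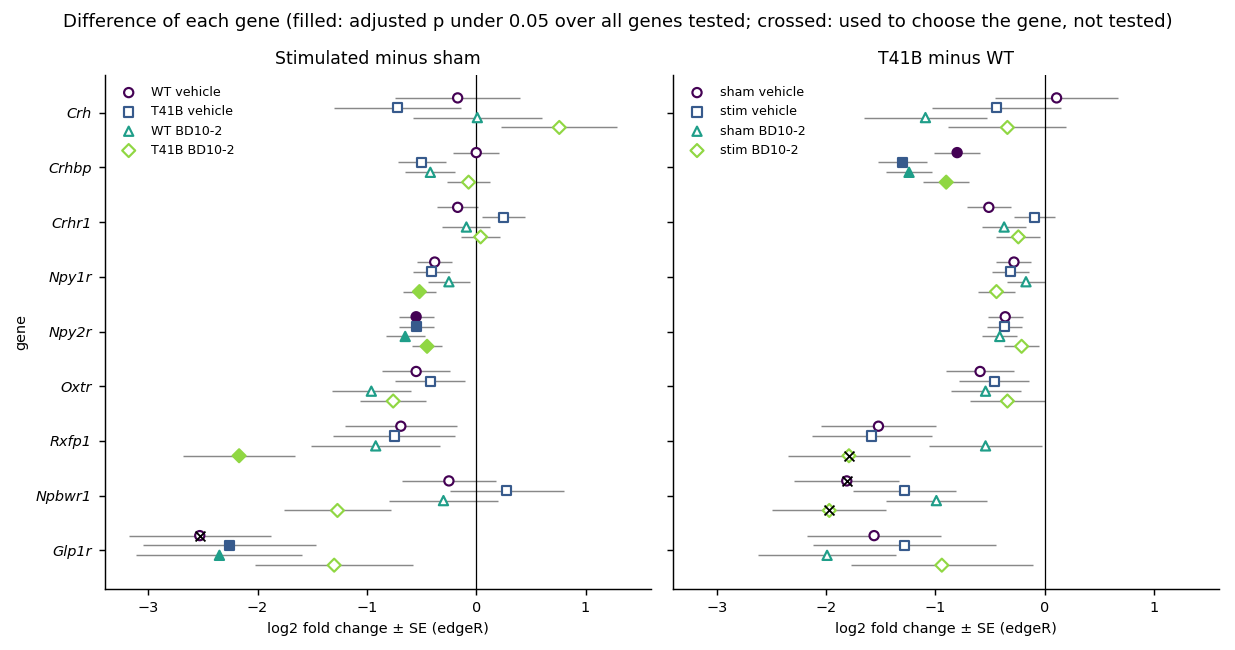
edgeR log2 fold changes with their SE (horizontal) of the 9 genes for the 4 stimulation comparisons (left) and the 4 genotype comparisons (right). Filled symbols mark an adjusted p under 0.05 among the tested values, and crosses mark the 4 values that had been used to choose a gene. Crhbp is filled throughout on the right and Npy2r throughout on the left.

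Counted over the 9 genes, stimulation gave 2 calls in WT and 2 in T41B mice with vehicle, and 2 in WT and 3 in T41B mice with BD10-2, all lower, where 4.1%, 9.83%, 2.58% and 9.52% of all genes were. The median log2 fold change of the 9 was -0.38, -0.50, -0.42 and -0.52, against -0.01, -0.05, -0.01 and -0.04 over all genes. Every stimulated value lay below every sham value for 3, 0, 5 and 2 of the 9, as it did for 6.72%, 8.72%, 15.2% and 5.93% of all genes. Genotype gave 2 calls in sham vehicle, 1 in stimulated vehicle, 1 in sham BD10-2 and 3 in stimulated BD10-2 slices, all lower, where 1.24%, 1.05%, 1.14% and 2.36% of all genes were. Since 4 of these 16 calls had been used to choose a gene, nothing is read from the counts. GABAergic markers had a lower median sum in stimulated slices, at 182 to 367 CPM (median 264) against 230 to 394 CPM (median 294) in sham slices, which overlapped. Of the 8 markers 0, 1, 1 and 1 were called after stimulation, all lower, beside 4.1%, 9.83%, 2.58% and 9.52% of all genes. Their part in the stimulation values was not tested. The sum of the principal neuron markers was 3740 to 5650 CPM in stimulated and 3990 to 5830 CPM in sham slices. Glial markers differed by type. Oligodendrocyte markers had 0 of 5 called in each genotype comparison, and 1 of 5, lower, after stimulation in T41B vehicle mice only. Microglial markers, 5 of 5 called lower after stimulation in each combination, summed to 197 to 269 CPM in WT sham, 80.1 to 125 in WT stimulated, 390 to 665 in T41B sham and 180 to 346 CPM in T41B stimulated samples. Astrocyte markers summed to 1000 to 1790 CPM in WT and 2100 to 4820 CPM in T41B samples. After stimulation 3, 3, 0 and 3 of the 5 astrocyte markers were called, all higher, in the order of the counts above. The part of glial markers in the values of the 9 genes was not tested.

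BD10-2 against vehicle gave no call among the 9 genes in either genotype or slice condition, and edgeR called 0% of all genes in each of these 4 comparisons, with 374 genes in sham WT, 1093 in stimulated WT, 431 in sham T41B and 759 in stimulated T41B slices at unadjusted p under 0.05. DESeq2 called 25 genes in stimulated WT slices, none in the other 3 comparisons and none of the 9 genes. The 1 unadjusted p under 0.05 among the 9 genes was that of Npbwr1 in stimulated T41B slices (log2 fold change -1.26, edgeR adjusted p = 1.0, SE 0.53), a group used to choose it. Crhbp differed with BD10-2 by 0.26, -0.16, -0.18 and 0.24 (SE 0.21 to 0.22) in sham WT, stimulated WT, sham T41B and stimulated T41B slices. Tests of whether the stimulation response differed between genotypes or treatments called 0% of genes in all 4 forms, and none of the 9. In the order T41B minus WT with vehicle and with BD10-2, then BD10-2 minus vehicle in WT and in T41B mice, edgeR had 1683, 846, 337 and 526 genes at unadjusted p under 0.05, with 1 value of the 9, that of Npbwr1 between BD10-2 and vehicle in T41B mice (-1.55, SE 0.72), which contains the same samples. Blocked by mouse, edgeR called 3 genes for T41B minus WT with vehicle, none in the other forms and none of the 9. DESeq2 called 4, 20, 0 and 1 genes in the same order.

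Some of the 9 genes also varied with each other within conditions. After subtraction of group means, Oxtr varied most closely with Glp1r (r = 0.67 over 32 samples), Npbwr1 (0.66), Rxfp1 (0.60) and Crhbp (0.60). Crh and Crhr1 had r = 0.54. Npy1r had r = -0.66 against Crh and -0.65 against Crhr1, but 0.38 with Npy2r, 0.02 with Npbwr1 and 0.01 with Crhbp. Other pairs were near 0 too, among them Crh with Crhbp (-0.01), Crh with Npbwr1 (-0.04) and Crhbp with Crhr1 (0.05). These correlations describe samples that share mice and tissue composition. Genes most like Npy1r included Gabrb2 (r = 0.94) and Slc2a13 (0.93), and those most like Npy2r were B4galt6 (0.92), Uhmk1 (0.92) and Alg2 (0.91). Oxtr was most like Spock1 (0.94), Spock2 (0.94) and Caln1 (0.93), and Npbwr1 most like Myo5a (0.87), Sv2b (0.86) and Emb (0.86). For Crhr1 they were AC109619.1 (0.85), L3mbtl1 (0.85) and Flrt1 (0.81), and for Crh Gm45799 (0.68), Bcl2l2 (0.63) and C230062I16Rik (0.60).

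For the wider peptide system, the share of all genes called in either direction was 12.3%, 21.5%, 8.87% and 22.9% for stimulation in the order of the counts above, and 6.24%, 5.79%, 5.45% and 10.6% for genotype. Of other neuropeptide receptors, 36 of 53 could be tested. After stimulation 1, 1, 0 and 8 of them were called, with medians of -0.34, -0.28, -0.34 and -0.39. With the mouse as a block the vehicle T41B count was 5 and the WT BD10-2 count 1. In that fit 20.1%, 29.5%, 6.6% and 23.9% of all genes were called after stimulation, in the same order. The 8 were called lower in BD10-2-treated T41B mice. They included Glp2r (from 3.29 to 0.658 CPM, log2 fold change -2.32, edgeR adjusted p = 0.00212), Cckbr, the brain cholecystokinin receptor (from 10.1 to 3.72 CPM, -1.45), Sstr1 (from 5.41 to 2.84 CPM, -0.93) and Npy5r, another neuropeptide Y receptor (from 3.59 to 2.41 CPM, -0.55). Sham values varied widely for Glp2r (SD 3.26 CPM) and Cckbr (SD 5.34 CPM), less for Sstr1 (0.778 CPM) and Npy5r (0.549 CPM). By genotype 1, 1, 2 and 4 were called. Mchr1, the receptor of melanin-concentrating hormone, was called lower in T41B mice in all 4, with log2 fold changes of -0.85 to -0.66 (in sham vehicle slices 6.35 against 11.4 CPM, edgeR adjusted p = 0.00497). St13 and Slc25a17, which neighbour Mchr1 in the genome and are no peptide receptors, were also called lower in all 4. The part of their shared location was not tested. Of 30 neuropeptide precursors, 17 could be tested, and Sst, Cort, Pdyn and Tac1 were called between genotypes. Pdyn, the dynorphin precursor, rose in T41B mice in sham BD10-2 slices from 6.47 to 11.6 CPM (edgeR adjusted p = 0.0116), while Tac1 fell from 1.51 to 0.599 CPM (edgeR adjusted p = 0.0293). Markers of dentate granule cells, which express Pdyn, had mean sums of 280 CPM in WT and 359 CPM in T41B mice there, with 0 of 4 called, and their part was not tested.

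All 15 genes of peptide processing and dense-core vesicles could be tested. Pcsk2, the protease that cuts many precursors, fell after stimulation in 3 of the 4 combinations, from 282 to 223 CPM in WT vehicle, from 257 to 205 CPM in WT BD10-2 and from 216 to 164 CPM in T41B BD10-2 mice (edgeR adjusted p = 0.0116, 0.0434 and 0.000478). Scg3 rose in T41B vehicle mice from 201 to 242 CPM (edgeR adjusted p = 0.0471), and these were the 4 calls of the list after stimulation. With the mouse as a block the list had 4, 4, 1 and 8 calls, beside shares of 20.1%, 29.5%, 6.6% and 23.9% of all genes. By genotype 4, 0, 3 and 1 genes were called, all lower in T41B mice. They included Pam, the enzyme that amidates peptides (from 169 to 134 CPM in sham vehicle slices, edgeR adjusted p = 0.00419), and Vgf, a secreted granule protein (from 176 to 107 CPM in sham BD10-2 slices, edgeR adjusted p = 0.0331). Median log2 fold changes of the list between genotypes were -0.33, -0.23, -0.27 and -0.22, against -0.03 to 0.01 over all genes.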

How the data were processed

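RNA of hippocampal slices was sequenced from ribosomal RNA-depleted, stranded libraries made from 200 ng of total RNA, per the labels' protocols. The authors deposited expected counts per gene for 36 libraries (5.7% of values hold decimals). The submitters' processing notes name cutadapt 1.8.1, STAR 2.7.6a, RSEM 1.3.1, featureCounts 1.6, SAMtools 1.11 and the builds GRCm38.p6 and mm10. The annotation release, strand setting and filters are not given in the sources used here. Antisense or overlapping transcripts may therefore share reads.

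Libraries of the same mouse and stimulation were summed and the expected counts rounded. Genes were filtered with filterByExpr (minimum count 10), scaled by TMM and tested in edgeR 4.0.16 (R 4.3.3) by the quasi-likelihood test in 1 fit of 8 groups without covariates. P-values were adjusted by Benjamini-Hochberg over all genes tested. The test was run on simulated counts of independent samples, which cannot show its error rate for slices that share mice. Genes compared across samples for likeness averaged at least 1 CPM, with a pseudocount of 1. Symbols were matched for 55154 of 55421 identifiers, exon lengths and coordinates came from GENCODE M21 on GRCm38, and promoters from RefSeq. Whether the samples of a mouse deviate together was checked by the correlation of their deviations from group means: the mean was 0.29 over 14 mice, against -0.09 over 38 combinations of different mice, and the labels number the mice, which pairs their slices. The alternatives were DESeq2 1.42.0, RLE scaling, no filter, the first library alone, a batch covariate, the mouse as a block, fits of the compared groups alone, and leaving out each sample. Omitting samples rich in choroid plexus markers was chosen after seeing the data.

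The members and lists were chosen with earlier results of these data known. All members were described in every comparison. From each list, up to 4 called genes per direction with the largest fold change and at least 1 CPM on average could be named, and for each member the 3 genes with the highest correlation. For Npy1r, 1 of these is not reported here.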

Additional observations from a re-analysis of the deposited data

Results flagged for a closer look

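In groups of 4 or 5 samples, 7 of 54 tests found a sample of 1 of the 9 genes that lay far from the rest of its group. They used the gap to the nearest value over the range of the group. Chance gives about 1 in 20 only for independent, normally distributed values. The 9 genes share samples and some have low counts, so nothing is read from the count. In stimulated slices of vehicle-treated WT mice, Mouse1524 had 0.922 CPM of Crh against 0.278 to 0.386 CPM in the others, and 13.8 CPM of Npy1r against 17.6 to 18.2 CPM. In the same group Mouse1513 had 7.27 CPM of Crhbp against 9.16 to 9.53 CPM, and Mouse1522 had 2.77 CPM of Npbwr1 against 1.53 to 1.6 CPM. In sham slices of vehicle-treated WT mice, Mouse1509 had 3.32 CPM of Npbwr1 against 1.76 to 1.96 CPM. In T41B mice, the sham slice of BD10-2-treated Mouse1557 had 1.31 CPM of Glp1r against 0.165 to 0.424 CPM, and the stimulated slice of vehicle-treated Mouse1551 had 12.2 CPM of Npy1r against 14 to 14.2 CPM.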

How the results depend on the processing

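Each called value was compared under up to 8 alternative settings and in 6 to 10 fits that left out 1 sample of the groups compared. In these, no value of the 9 genes called in the reported fit changed direction. Counts of calls were taken over all 32 fits that each left out 1 sample. Leaving aside the values used to choose genes, the 8 calls after stimulation, 1 of which (Rxfp1) uses samples on which the gene was chosen, became 6 to 9 under other settings and 5 to 11 with 1 sample left out, and the 4 genotype calls became 3 to 5 and 3 to 7. Calls for BD10-2 and for differences in response remained 0. Npy1r in BD10-2-treated T41B mice, and the genotype difference of Crhbp in stimulated vehicle and sham BD10-2 slices, held in each alternative setting fitted. They also held without any 1 sample of the groups compared. With the mouse as a block, beside the values given above, 1 further list moved by over 1.5 times: the precursors had 2 calls in WT vehicle slices, where the reported fit had 0, beside 20.1% and 12.3% of all genes. Fits of the compared groups alone lost Glp1r (edgeR adjusted p = 0.0621) in BD10-2 WT mice, Npy2r (0.0641) in BD10-2 T41B mice and Crhbp (0.053) between genotypes in stimulated BD10-2 slices. The first library alone lost Glp1r (0.0981) and Npy2r (0.0544) in BD10-2 WT mice, and RLE scaling lost Glp1r there (0.0501). Gained, beside the values given with Oxtr, Crhbp and Npbwr1, was the genotype difference of Glp1r in sham BD10-2 slices, with the first library alone (edgeR adjusted p = 0.0436) and with DESeq2 (0.0348). The list counts moved by over 1.5 times in 80 of 240 alternatives. A batch covariate could not be fitted for BD10-2 against vehicle. Low counts limit Crh, Glp1r and Npbwr1.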

Other observations

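After stimulation in T41B mice, 3 of 17 neuropeptide precursors were called with vehicle and 5 of 17 with BD10-2, in both directions. Of all genes 21.5% and 22.9% were called there, and nothing is read from the counts. With vehicle, Nts (neurotensin) rose from 1.14 to 3.62 CPM (log2 fold change 1.68, edgeR adjusted p = 0.00309) and Trh from 0.733 to 1.56 CPM (edgeR adjusted p = 0.0456), while Pdyn fell from 10.5 to 6.55 CPM (edgeR adjusted p = 0.0124). Dentate granule cell markers went from 372 to 236 CPM there, with 3 of 4 called lower, and their part in the Pdyn values was not tested. With BD10-2, Penk (enkephalin) rose from 14.7 to 21.3 CPM (edgeR adjusted p = 0.0322) and Tac1 from 0.599 to 1.14 CPM (edgeR adjusted p = 0.0495). Adcyap1, which encodes PACAP, fell from 4.17 to 1.2 CPM (edgeR adjusted p = 0.0247) and Vip from 3.62 to 1.95 CPM (edgeR adjusted p = 0.0132). The SD of their sham values was 2.73 CPM for Adcyap1 and 0.723 CPM for Vip. In WT mice edgeR called 0 of the 17 precursors tested with either treatment, where 12.3% of all genes were called with vehicle and 8.87% with BD10-2, and with the mouse as a block it called 2 with vehicle, beside 20.1% of all genes. The test of whether the genotypes differ in these responses called no gene of all tested with edgeR, 3 with vehicle when the mouse was a block, and 4 with vehicle and 20 with BD10-2 by DESeq2. It had 1683 genes with vehicle and 846 with BD10-2 at unadjusted p under 0.05.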
